A study of Mus musculus with 14 samples.

Results

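Clone T is a line grown from a single cell of 4T1, a tumour cell line of the mouse mammary gland, and was labelled intravasating, that is, able to enter blood vessels. It was set against clones E, I, K, L and P, likewise grown from single 4T1 cells in the same serum-containing medium, of which E was labelled intravasating and I, K, L and P non-intravasating. Bisulfite sequencing of genomic DNA gave methylation levels, as fractions from 0 to 1, for 21965 gene promoters and for 97247 autosomal hypomethylated regions (HMRs, stretches of low methylation). Each clone was sequenced in 2 rounds, but the deposited tables held 1 value per clone, so clone T was 1 value against 5. The regions described were those at which clone T lay above or below all 5 other clones, 7042 promoters and 19980 autosomal HMRs. A region was termed apart where the gap to the nearest other clone was at least 0.2, which held for 31 promoters and 366 autosomal HMRs. Because the levels themselves chose these regions, their differences are a description and carry no test. How many reads stand behind each level is unknown. The parental 4T1 line was not analysed here.

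In mammals DNA methylation is found mainly on cytosines followed by guanine (CpG sites). Promoters rich in CpG sites are as a rule unmethylated, and dense methylation of such a promoter goes with stable silencing of its gene. Promoters poor in CpG sites are often methylated in cells that do not use the gene. Cancer cells commonly lose methylation over wide stretches of the genome and gain it at single promoters. Transcription was not part of the tables used here, so nothing below is a statement on gene expression.

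Averaged over the promoters and over the autosomal HMRs, clone T was among the less methylated clones. Its mean promoter level was 0.377, against 0.404, 0.412, 0.402, 0.369 and 0.406 in clones E, I, K, L and P. Its mean autosomal HMR level was 0.122, against 0.195, 0.174, 0.157, 0.111 and 0.161 in the same order. Clone T was thus the second lowest of the 6 clones in both tables, above clone L alone, and lay inside the range of the others. The mean promoter difference of -0.0214 gave p = 0.333 and the mean HMR difference of -0.0372 gave p = 0.5 in a two-sided exact permutation test over the 6 choices of 1 clone, which cannot go below 0.167. As a check of the cell type, the promoters of epithelial marker genes averaged 0.211 in clone T and 0.203 over the others. Promoters of leukocyte, fibroblast and endothelial marker genes averaged 0.631, 0.632 and 0.729 in clone T, against 0.690, 0.632 and 0.782 over the others. Single markers overlapped between the lists. In clone T the epithelial ones ran from 0.0726 (Ovol1) to 0.565 (Krt19) and the leukocyte ones from 0.348 (Lyz2) to 0.744 (Csf1r). The fibroblast ones ran from 0.0483 (Pdgfra) to 0.869 (Thy1) and the endothelial ones from 0.600 (Tie1) to 0.902 (Esam). These averages alone therefore do not settle the cell type.

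Most of the regions at which clone T was extreme lay lower. Clone T was below all 5 others at 5404 promoters (24.6%) and above them at 1638 (7.46%). The gap was at least 0.1 at 222 lower promoters (1.01%) and 27 higher ones (0.123%), and at least 0.2 at 27 lower (0.123%) and 4 higher promoters (0.0182%). It was at least 0.3 at 5 lower promoters (0.0228%) and at no higher one. Once each clone was centred on its median, 16 promoters were lower and 5 higher by 0.2, so that 76.2% rather than 87.1% of those apart were lower. All 31 promoters apart stayed on the same side after centring, 20 of them still by at least 0.2. Their side was fixed in advance, since centring shifted the clones against each other by less than the gap of 0.2 that chose them. Clone L showed a like split, with 30 promoters apart below and 7 above, whereas clones E, I, K and P had between 1 and 4 below and between 10 and 20 above.

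**Figure D1:**
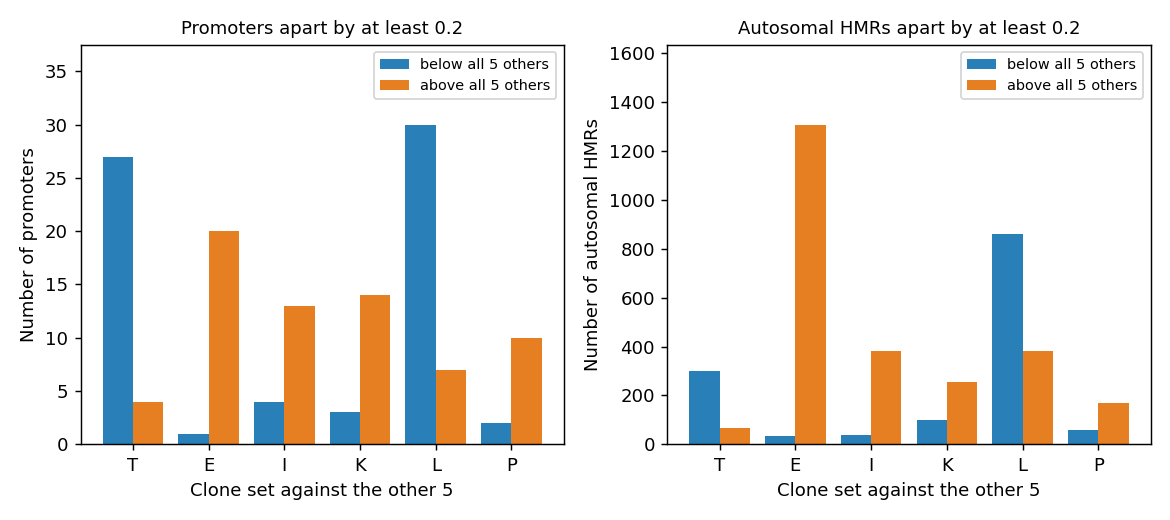
Number of promoters (left) and autosomal HMRs (right) at which each clone lay below (blue) or above (orange) the other 5 by at least 0.2. For clone T the bars stand at 27 below and 4 above for promoters and at 298 below and 68 above for HMRs. Clones T and L have more regions below than above, and the other 4 clones more above than below.

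The promoter with the widest gap was that of Vgll3, which codes for a vestigial-like cofactor of the TEAD transcription factors. Its level was 0.0816 in clone T, against 0.424, 0.748, 0.613, 0.452 and 0.689 in clones E, I, K, L and P. Clone T was therefore nearly unmethylated at this promoter while every other clone was methylated at an intermediate level. The other 5 clones were spread among themselves, with an SD of 0.143 around a mean of 0.585. Of the 23 promoters of Vestigial-like, TEAD and Hippo pathway genes, this was the sole one lower by 0.1 or more (4.35%, against 1.01% of all promoters). Their median difference from the mean of the others was -0.00258, against -0.0143 over all promoters. Vgll4, a second gene of the family, had 0.148 in clone T, against 0.182, 0.216, 0.177, 0.183 and 0.198 in clones E, I, K, L and P. The promoter of Yap1, a co-activator with which TEAD factors work, was at 0.0153 in clone T and 0.00726 to 0.0297 in the others.

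The letters in front of these genes differ in their CpG content. The 4 windows printed here are a choice from the members with a RefSeq window and a single promoter in the table, made to show CpG-rich (Vgll3, Zfp597) and CpG-poor (Ecm2, Hexa) examples. Each is the 250 bases before the gene's start in GRCm38.p6, read 5′ to 3′ on the gene's strand, with CpG sites in capitals. They lie at chr16:65814939-65815188 (plus strand), chr16:3872375-3872624 (minus strand), chr13:49504560-49504809 (plus strand) and chr9:59539290-59539539 (plus strand). The sources used here do not give the authors' promoter boundaries, so a window may cover only a part of what was measured.
Vgll3: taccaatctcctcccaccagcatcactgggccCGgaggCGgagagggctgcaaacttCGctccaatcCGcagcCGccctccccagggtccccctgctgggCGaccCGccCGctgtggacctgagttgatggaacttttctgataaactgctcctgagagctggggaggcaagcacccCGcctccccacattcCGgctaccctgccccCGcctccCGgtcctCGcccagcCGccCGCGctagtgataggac
Zfp597: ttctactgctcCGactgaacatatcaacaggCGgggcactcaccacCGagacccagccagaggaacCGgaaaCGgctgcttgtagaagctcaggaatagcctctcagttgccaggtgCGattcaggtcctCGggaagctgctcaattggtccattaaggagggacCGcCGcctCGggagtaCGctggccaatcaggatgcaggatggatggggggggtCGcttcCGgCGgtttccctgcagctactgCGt
Ecm2: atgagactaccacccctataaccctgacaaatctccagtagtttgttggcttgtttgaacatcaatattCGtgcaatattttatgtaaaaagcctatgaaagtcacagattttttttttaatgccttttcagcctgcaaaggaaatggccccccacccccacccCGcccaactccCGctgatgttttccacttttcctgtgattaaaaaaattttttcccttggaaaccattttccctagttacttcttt
Hexa: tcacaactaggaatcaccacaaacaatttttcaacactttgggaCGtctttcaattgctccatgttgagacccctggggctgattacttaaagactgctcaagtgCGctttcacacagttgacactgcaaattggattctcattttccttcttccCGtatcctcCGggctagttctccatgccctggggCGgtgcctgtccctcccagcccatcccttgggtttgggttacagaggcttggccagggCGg
The windows of Vgll3 and Zfp597 hold 16 and 15 CpG sites, those of Ecm2 and Hexa 3 and 6. Over all 32851 promoter windows the median was 6, with 27.3% of windows at 15 or more and 44.4% at 4 or fewer. No comparison of CpG content over the whole set is given. Of the 27 lower promoters 70.4% had a window, against 76.5% of all promoters, and the measured promoter boundaries are unknown.

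Ecm2 codes for a matrix protein with leucine-rich repeats. Its promoter was at 0.490 in clone T, against 0.856, 0.836, 0.838, 0.836 and 0.806 in clones E, I, K, L and P. The other 5 clones lay close together, with an SD of 0.0182, and clone T stood far below them. Nedd9 codes for a scaffold protein of the Cas family that acts downstream of integrins in cell migration. A Nedd9 promoter was at 0.484 in clone T, against 0.763, 0.758, 0.714, 0.822 and 0.823 in the other clones in the same order. The second Nedd9 promoter did not share this, at 0.227 in clone T and 0.168 to 0.249 in the others. Among 17 promoters of small leucine-rich matrix protein genes Ecm2 alone was lower by 0.1 (5.88%, against 1.01% of all promoters). None was among 42 collagen promoters or 42 promoters of integrins and laminins, lists short enough to hold none at that share. In these lists clone T was below all others at 28.6% and 33.3%, against 24.6% of all promoters. Their median differences were -0.0252 and -0.0340, against -0.0143 over all promoters. Of 51 promoters of matrix proteases and their inhibitors, 2 (3.92%, against 1.01% of all promoters) were lower by 0.1, one of them that of Mmp9, a gelatinase, at 0.386 in clone T and 0.505 to 0.591 in the others.

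Dlc1 codes for a GTPase-activating protein known as a tumour suppressor. A Dlc1 promoter was at 0.260 in clone T, against 0.620, 0.655, 0.742, 0.715 and 0.589 in clones E, I, K, L and P. Its other promoters, at 0.771 and 0.901 in clone T, lay inside the range of the others, so the difference touched 1 of 3 start sites. Sfrp1 codes for a secreted antagonist of Wnt ligands. Its promoter was at 0.238 in clone T, against 0.558, 0.588, 0.609, 0.587 and 0.462 in the others in the same order. Clone T thus had the lowest Sfrp1 level by a wide margin, with clone P nearest. Of the 29 promoters of secreted Wnt antagonists and Wnt receptors Sfrp1 was the sole one lower by 0.1 (3.45%, against 1.01% of all promoters). Their median difference was -0.00877, against -0.0143 over all promoters. Of 20 promoters of Wnt ligands none was lower by 0.1, though a list this short may hold none at a share of 1.01%. Clone T was below all others at 7 of the 20 (35%, against 24.6% of all promoters), with a median difference of -0.0267.

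Fgfr1, a receptor of fibroblast growth factors (FGFs), had a promoter level of 0.581 in clone T, against 0.802, 0.795, 0.819, 0.791 and 0.8 in clones E, I, K, L and P. The other 5 clones lay within an SD of 0.0108. Fgf20, which codes for a secreted FGF ligand, was at 0.419 in clone T, against 0.604, 0.587, 0.627, 0.633 and 0.579. Both genes lie on chromosome 8, as do Sfrp1 and Dlc1. On that chromosome 13 of 1030 promoters (1.26%) were lower by 0.1, near the 1.01% of all promoters. In all, 2 of 26 promoters of FGF ligands and receptors (7.69%, against 1.01% of all promoters) were lower by 0.1, none was higher, and their median difference was -0.0260, against -0.0143 over all promoters. This list was drawn up after the values of Fgfr1 and Fgf20 had been seen, so its share is a description alone. Gnas, an imprinted gene, codes for the alpha subunit of the stimulatory G protein. A Gnas promoter was at 0.419 in clone T, against 0.631, 0.673, 0.630, 0.671 and 0.718, while of the other 3 Gnas promoters 1 lay below the nearest clone by 0.0337 and the rest lay inside the range of the others. Mcts2, a further imprinted gene, which lies with Gnas on chromosome 2, was at 0.438 in clone T and 0.591 to 0.680 in the others. These were the only promoters lower by 0.1 among 51 promoters of imprinted genes (3.92%, against 1.01% of all promoters).

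**Figure D2:**
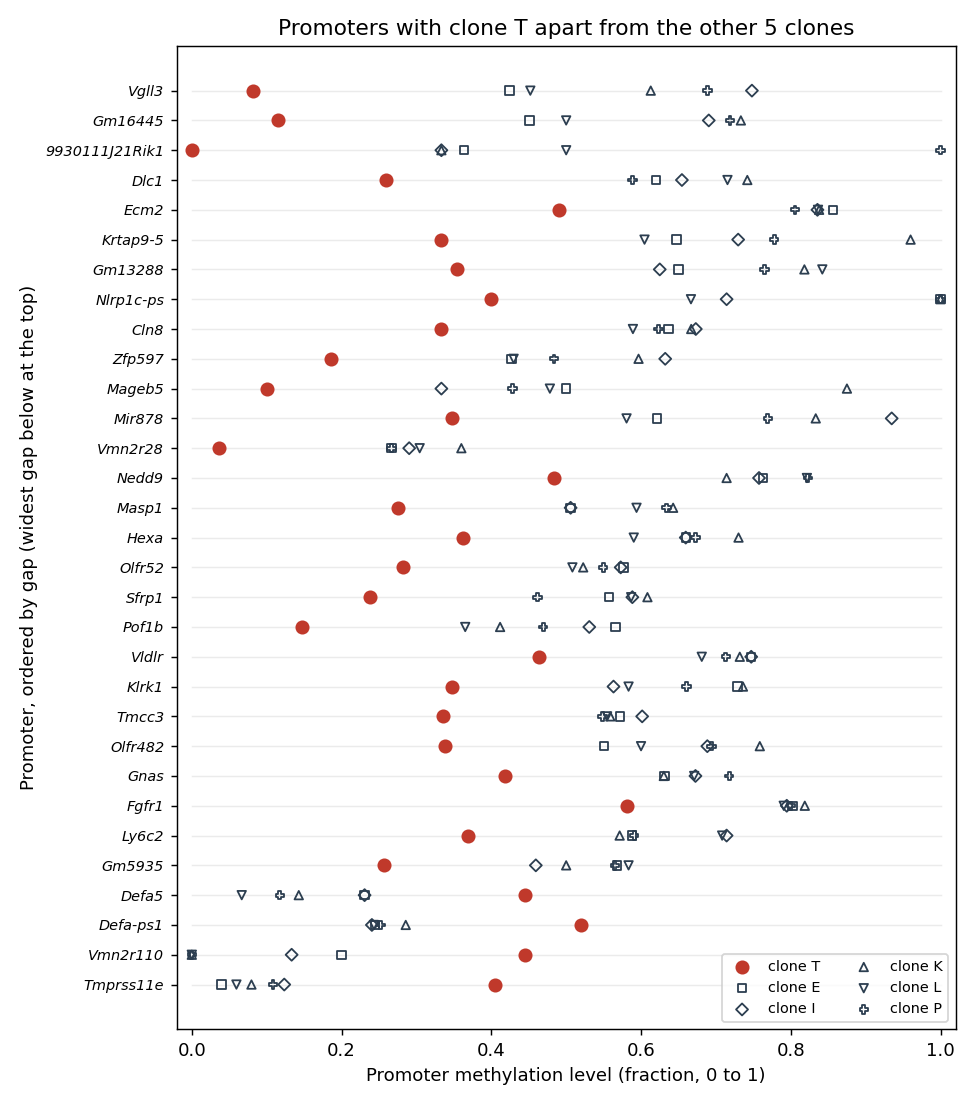
Methylation level (fraction, x axis) of the 31 promoters at which clone T (red circles) lay at least 0.2 from all 5 other clones (open symbols), ordered by gap. Clone T lies left of every other clone in the upper 27 rows, from Vgll3 to Gm5935, and right of them in the lower 4. The other clones are tightly grouped at Ecm2, Fgfr1 and Defa-ps1 and widely spread at 9930111J21Rik1, Mageb5 and Mir878.

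Cln8, whose product helps lysosomal enzymes leave the endoplasmic reticulum, was at 0.333 in clone T, against 0.636, 0.673, 0.667, 0.589 and 0.624 in clones E, I, K, L and P. Hexa, which codes for a subunit of the lysosomal enzyme beta-hexosaminidase, was at 0.362 in clone T and 0.590 to 0.730 in the others. Vldlr, a lipoprotein and reelin receptor, was at 0.464 in clone T and 0.681 to 0.747 in the others. At these 3 genes the spread of the others, with SDs of 0.0342, 0.0498 and 0.0277, was small beside the gap. Masp1, a protease of the lectin pathway of complement, was at 0.275 in clone T and 0.506 to 0.643 in the others. A promoter of Klrk1, which codes for the natural killer cell receptor NKG2D, was at 0.347 in clone T and 0.563 to 0.736 in the others, while its second promoter, at 0.378, lay inside their range. Its neighbour Klrd1 was at 0.493 in clone T and 0.613 to 0.816 in the others. Ly6c2, a surface antigen of monocytes and other leukocytes, was at 0.368 in clone T and 0.571 to 0.714 in the others. The remaining named coding genes were Zfp597, a zinc finger gene, at 0.185 in clone T and 0.427 to 0.632 in the others, Pof1b, at 0.147 and 0.365 to 0.566, and Tmcc3, at 0.335 and 0.549 to 0.602. For Tmcc3 a second promoter was also lower, at 0.599 in clone T and 0.726 to 0.766 in the others.

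Members of large gene families used in hair, smell or the germ line were also present. Krtap9-5, a keratin-associated protein gene of hair, was at 0.333 in clone T and 0.605 to 0.96 in the others. The vomeronasal receptor Vmn2r28 was at 0.0357 in clone T and 0.267 to 0.36 in the others. The olfactory receptors Olfr52 and Olfr482 were at 0.282 and 0.339 in clone T, against 0.508 to 0.576 and 0.551 to 0.759 in the others. Mageb5, on the X chromosome, was at 0.1 in clone T and 0.333 to 0.875 in the others. Of 1106 olfactory receptor promoters, 28 (2.53%) were lower by 0.1 and 4 higher, with a median difference of -0.0361. The corresponding counts were 4 lower and 2 higher of 272 vomeronasal receptor promoters, and 1 lower of 389 zinc finger gene promoters. The share for all promoters was 1.01%, and these counts share the direction that chose them. The other lower members were the predicted genes or pseudogenes Gm16445, 9930111J21Rik1, Gm13288, Nlrp1c-ps and Gm5935. Of these, 9930111J21Rik1 had 0 in clone T and 0.333 to 1 in the others.

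One microRNA gene, Mir878 on the X chromosome, was apart, and Mir155 on chromosome 16 was lower by 0.1. The mature sequences are shown because a microRNA finds its targets by its seed (bases 2 to 8, in capitals), which differs among the 4 arms. They were taken from RefSeq for GRCm38.p6, at chrX:66801554-66801575 and chrX:66801518-66801539 on the minus strand and at chr16:84714143-84714165 and chr16:84714182-84714202 on the plus strand.
mmu-miR-878-5p: uAUCUAGUuggaugucaagaca
mmu-miR-878-3p: gCAUGACAccacacuggguaga
mmu-miR-155-5p: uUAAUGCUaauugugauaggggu
mmu-miR-155-3p: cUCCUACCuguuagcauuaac
The Mir878 promoter was at 0.348 in clone T, against 0.622, 0.935, 0.833, 0.581 and 0.769 in clones E, I, K, L and P. The Mir155 promoter, of a microRNA known from activated immune cells, was at 0.758 in clone T, against 0.882, 0.896, 0.897, 0.871 and 0.869. Both were below every other clone, and Mir155 remained highly methylated in all 6 clones. Of 558 promoters of microRNA genes, 5 (0.896%, against 1.01% of all promoters) were lower by 0.1 and 2 higher.

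At 4 promoters clone T was higher by 0.2. Tmprss11e codes for a membrane-anchored serine protease of epithelia, and its promoter was at 0.405 in clone T, against 0.0394, 0.123, 0.0796, 0.0596 and 0.108 in clones E, I, K, L and P. All 5 other clones were thus low at Tmprss11e. Tmprss11d, a related protease gene on the same chromosome, was instead lower, at 0.341 in clone T and 0.452 to 0.662 in the others. Defa5, an alpha defensin gene of intestinal Paneth cells, was at 0.444 in clone T and 0.0667 to 0.231 in the others. The pseudogene Defa-ps1 was at 0.519 in clone T, against 0.245, 0.241, 0.286, 0.243 and 0.252 in clones E, I, K, L and P. The vomeronasal receptor Vmn2r110 was at 0.444 in clone T, at 0.2 and 0.133 in clones E and I and listed at 0 in clones K, L and P. Of 10 promoters of alpha defensin genes and pseudogenes, 3 were higher by 0.1 (0.123% of all promoters were) and none lower, with a median difference of 0.0438, against -0.0143 over all promoters. Clone T was above all others at 4 of the 10 and below all others at 2. The defensin list was drawn up after these values had been seen, so its shares are a description alone. Just short of a gap of 0.2 lay Hhip, an inhibitor of hedgehog ligands, at 0.778 in clone T and 0.449 to 0.584 in the others. The nearest lower promoter left out was Olfr1220, with a gap of -0.198, against -0.202 for Gm5935 just inside.

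Among the promoters lower by 0.1 but less than 0.2 were some of genes used in the epidermis. Lce3f, Lce1a1 and Lce1m code for late cornified envelope proteins, which strengthen the outer layer of the epidermis. Lce1a1 was at 0.0698 in clone T and 0.24 to 0.368 in the others, Lce3f at 0.264 and 0.444 to 0.642, and Lce1m at 0.587 and 0.727 to 0.793. Of 17 promoters of such genes, all on chromosome 3, these 3 (17.6%, against 1.01% of all promoters) were lower by 0.1 and none higher. Clone T was below all others at 8 of the 17 (47.1%, against 24.6% of all promoters), and the median difference was -0.0914, against -0.0143 over all promoters. Of 42 keratin-associated protein promoters 2 (4.76%) were lower by 0.1, and of 51 keratin promoters 1 (1.96%), that of Krt15, at 0.597 in clone T and 0.717 to 0.751 in the others. Cdsn, which codes for the corneodesmosome protein corneodesmosin, was at 0.498 in clone T and 0.605 to 0.738 in the others. The lists of late cornified envelope, keratin, keratin-associated protein, FGF and defensin genes were drawn up after the values had been seen.

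Duox2 and Duoxa2, which code for a hydrogen peroxide-producing oxidase and its maturation factor, are neighbours on chromosome 2. Duox2 was at 0.617 in clone T and 0.765 to 0.805 in the others, and Duoxa2 at 0.537 and 0.672 to 0.749. Both lay below a narrow band of the other clones, while Duox1 and Duoxa1, at 0.741 and 0.666 in clone T, lay inside the range of the others. Of the 218 genes with a lower promoter that could be placed on a chromosome, 8 pairs were next to each other in gene order, among them Cyp24a1 and Pfdn4, Sox12 and Zcchc3, and Mageb5 and Mageb18. Whether 8 such pairs are more than in any like number of genes was not tested. Cyp24a1, which breaks down active vitamin D, was at 0.340 in clone T and 0.484 to 0.524 in the others. Cyp1b1, a cytochrome P450 that oxidises oestrogens, was at 0.118 in clone T and 0.264 to 0.362 in the others. They were among 3 lower promoters of 99 cytochrome P450 promoters (3.03%, against 1.01% of all promoters). Of 56 promoters of chemokines and their receptors 2 (3.57%) were lower by 0.1, Cxcr4, at 0.358 in clone T and 0.465 to 0.589 in the others, and Ccr2, at 0.204 and 0.308 to 0.474.

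Chromosome 16, which holds Vgll3, Zfp597 and Masp1, had the highest share of lower regions among the autosomes, with the clones as deposited. Of its 686 promoters 16 (2.33%) were lower by 0.1, against 0.889% on the other autosomes. After centring the promoter share was 1.31%, against 0.519%, the second highest of the 19 autosomes. As deposited, the promoter share of the other clones on chromosome 16 was 0% for E and I, 0.292% for K and P and 2.77% for L. Clone L was thus above clone T in this share. The mean promoter difference of clone T on chromosome 16 was -0.0211, against -0.0214 over all promoters. Of its 3355 HMRs 220 (6.56%) were lower by 0.1, against 2.15% on the other autosomes, the highest share of the 19 autosomes. The mean HMR level on chromosome 16 was 0.106 in clone T and 0.169 over the others. In settings chosen after seeing the data, with each clone centred on its median, the HMR share was 3.55%, against 0.947% on the other autosomes, and with HMRs above 0 in all 6 clones alone it was 6.23%, against 2.69%. With each of the other clones left out in turn its HMR share stayed the highest. It was 12.01% without clone L, against 6.84% on the other autosomes, and 7.24% to 8.35% without E, I, K or P, against 2.48% to 2.78%. The HMR share as deposited for the other clones on chromosome 16 was 0.358% for E, 0.358% for I, 1.61% for K, 5.22% for L and 0.268% for P. Among the other promoters lower there were Hunk, a protein kinase gene, at 0.0987 in clone T and 0.268 to 0.559 in the others, and Pla1a, a phospholipase gene, at 0.156 and 0.290 to 0.55. Brwd1 and Abcc5, also on chromosome 16, were higher, at 0.284 and 0.433 in clone T, against 0.111 to 0.178 and 0.260 to 0.304 in the others. The X chromosome had 24 of 916 promoters (2.62%) lower by 0.1. For the other clones this X share was 0.109% for E, 0.655% for I, 1.31% for K, 5.02% for L and 0.546% for P.

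**Figure D3:**
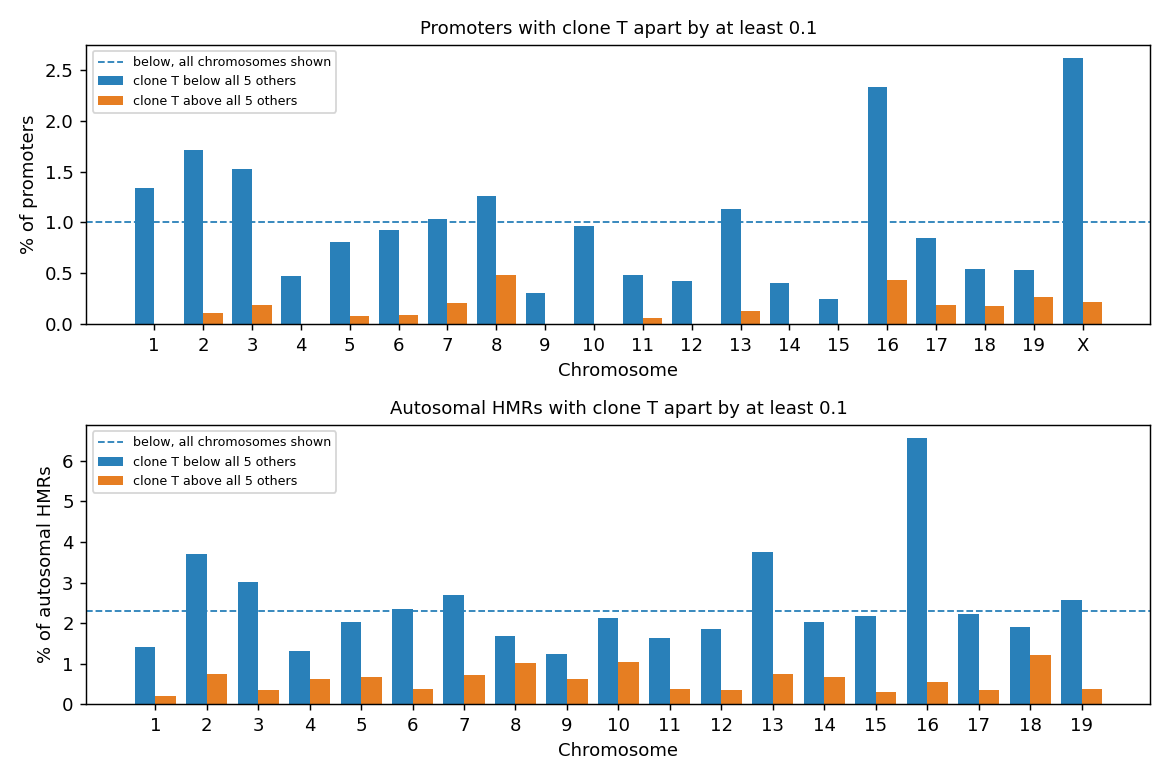
Share of promoters (top) and of autosomal HMRs (bottom) on each chromosome at which clone T lay below (blue) or above (orange) all 5 others by at least 0.1; the dashed line is the share below over all chromosomes shown. Chromosome 16 has the tallest blue bar for HMRs, at 6.56%, and with the X chromosome the tallest for promoters.

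For autosomal HMRs the coordinates are those of the deposited table, whose build was not established, so no gene or annotation is given for them. Clone T was below all others at 15738 HMRs (16.2%) and above them at 4242 (4.36%). At a gap of 0.1 there were 2237 lower (2.3%) and 566 higher (0.582%), and at a gap of 0.2 there were 298 lower (0.306%) and 68 higher (0.0699%). At a gap of 0.3 there were 88 lower (0.0905%) and 8 higher (0.00823%). This split moved with the scaling: after centring on the median 158 were lower and 183 higher (46.3% lower), and after quantile normalisation 210 and 320 (39.6%), against 81.4% lower as deposited. All 366 HMRs apart stayed on the same side after centring, 226 of them by at least 0.2. Their side too was fixed in advance, since centring shifted the clones against each other by less than the gap of 0.2 that chose them. Within the 50136 HMRs above 0 in every clone, 171 were lower and 22 higher.

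The HMR with the widest gap among those above 0 in all clones lay on chromosome 7 from 56598144 to 56598944. It was at 0.163 in clone T, against 0.742, 0.976, 0.826, 0.882 and 0.840 in clones E, I, K, L and P. It was thus hypomethylated in clone T and mostly methylated in each of the other clones. The next lay on chromosome 8 from 26647664 to 26648415, at 0.182 in clone T and 0.714 to 0.817 in the others. A longer one on chromosome 15 from 24213187 to 24226516 was at 0.103 in clone T and 0.563 to 0.739 in the others. The HMR on chromosome 3 from 89191335 to 89192416 was at 0.1 in clone T and 0.6 to 0.889 in the others. The HMR on chromosome 9 from 121275608 to 121276403 was at 0.0227 in clone T and 0.477 to 0.683 in the others. By the rule that chose them, these 5 were methylated above clone T in every other clone. On chromosome 2 an HMR from 33608963 to 33609764 was listed at 0 in clone T and stood at 0.714 to 0.9 in the others. On chromosome 16 an HMR from 29734788 to 29735845 was listed at 0 in clone T and stood at 0.685 to 0.857 in the others. Of the higher HMRs, that on chromosome 11 from 110658786 to 110663606 was at 0.627 in clone T, against 0.265, 0.333, 0.183, 0.0976 and 0.2. On chromosome 10 from 113271707 to 113277897 clone T was at 0.5 and the others at 0.117 to 0.230. At both the other 5 clones were lower than clone T and spread among themselves. On chromosome 8 from 91561614 to 91564412 clone T was at 0.556 and the others at 0.167 to 0.286. At the next 2 the others, apart from clone L at 1 of them, were partly methylated as well. On chromosome 4 a region of 181 bp from 151648139 to 151648320 was at 1 in clone T and 0.333 to 0.714 in the others. On chromosome 1 from 79903096 to 79907964 clone T was at 0.692, clone L at 0.143 and the rest at 0.4 to 0.429. At the HMRs on chromosome 3 from 81651975 to 81657687 and on chromosome 12 from 31371866 to 31376238, clone T was at 0.55 and 0.523 and every other clone was listed at 0.

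HMRs apart were shorter than most. The median length was 2130 bp for the 298 lower and 4218 bp for the 68 higher ones, against 4974 bp for all autosomal HMRs, and 27.2% and 17.6% were shorter than 1000 bp, against 3.30%. Clone T was listed at exactly 0 at 127 of the 298 lower HMRs, or 42.6%, against 34.0% of all. At 23 of the 68 higher HMRs the 5 other clones were all listed at 0. Of the lower HMRs 56 had another lower one within 100 kb, in 34 pairs, and of the higher ones 6 did, in 4 pairs. The share expected for a like number of HMRs was not worked out, so clustering was not tested.

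A limma fit across each table, in which the single value of clone T is taken to vary like the other clones, called few promoters. At an adjusted p under 0.05 it called 4 of 21965 promoters (0.0182%), Ecm2 as lower (0.00455%) and Tmprss11e, Defa-ps13 and Vmn2r-ps129 as higher (0.0137%). Defa-ps13 and Vmn2r-ps129 were at 0.111 and 0.182 in clone T and listed at 0 in every other clone. Thus 29 of the 31 promoters apart, Vgll3 and Sfrp1 among them, were not called, which does not show that they were alike. The Ecm2 call was lost without clone E, I, K or P, on a logit scale and without a mean trend. The Tmprss11e call was lost with any 1 of the other clones left out, on the logit and arcsine scales and without a trend. Both calls held after centring and under a filter on range (at least 0.1 over the 6 clones). The Defa-ps13 call was lost after centring, and those of Defa-ps13 and Vmn2r-ps129 were lost without a trend and under the range filter. Of the autosomal HMRs 542 (0.557%) were called, 540 higher (0.555%) and 2 lower (0.00206%). The number called lower moved with the setting, to 170 of 693 on the logit scale, 42 of 565 on the arcsine scale, 20 of 515 without a trend, 18 of 758 without clone L and 0 of 19 after centring. The other 5 clones were all listed at 0 in 523 of these 542, and no HMR was called among those above 0 in all 6 clones, where 1624 had an unadjusted p under 0.05. HMRs with only 1 clone above 0 numbered 523 for clone T, 1844 for E, 523 for I, 302 for K, 1159 for L and 405 for P. For clone T these were the same 523, so any level above 0 with the others at 0 was enough for a call. The median absolute difference of the called HMRs was 0.0577. The 2 HMRs called lower lay on chromosome 5 from 69534399 to 69542893, listed at 0 in clone T and averaging 0.314 ± 0.0184 (SD, n = 5) in the others, and on chromosome 10 from 115910411 to 115911249, listed at 0 in clone T and averaging 0.484 ± 0.0364 (SD, n = 5) in the others. Neither was called after centring, with a range of at least 0.1, with a mean level of at least 0.1 or without clone I, K or P. The first was also lost without clone E and the second without clone L.

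The clone nearest to clone T differed from gene to gene. At the 27 lower promoters the lowest of the others was clone L at 9, E at 6, I at 5, P at 4 and K at 3. Ties were counted for the first clone in the order E, I, K, L, P. Clone L was thus the lowest of the 5 at 33.3% of these promoters, against 46.4% of all promoters, and clone E, the other clone labelled intravasating, at 22.2%, against 13.6%. With 27 promoters these shares are a description alone. At the 5404 promoters with clone T below all others, the share of clone E was 17.8%. At the 298 lower HMRs it was 19.8%, against 28.6% of all autosomal HMRs. Over the 15738 HMRs with clone T below all others it was 9.56%. The share of all HMRs includes 17894 at which the other 5 clones were all listed at 0, so that none was the lowest. As ties, these were all counted for clone E, so 28.6% overstates how often clone E was the lowest. The HMR comparison thus turned with the base, and nearness to clone E was not tested.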

How the data were processed

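Genomic DNA of 6 clones and of the parental line was bisulfite converted and sequenced in 2 rounds each, per the labels' protocols. The authors deposited methylation levels as fractions, 1 per clone, for promoters and HMRs. bedtools, DESeq and mm10 are named in the submitters' processing notes with no role. The aligner, promoter boundaries, HMR caller, averaging and how rounds were joined were not given in the sources used here. HMRs on chromosome 7 reach 152.5 Mb, past the last mm10 gene at 145.3 Mb, so their build was not established. No counts came with the levels, so no interval from counting error is given. p-values measure only the spread between clones.

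Of 22110 promoter rows 145 repeats were dropped. Of 20343 gene names RefSeq (GRCm38.p6) held 18885 as symbols and 1343 as synonyms and lacked 115, and the match gave chromosomes and gene order. Promoters whose 6 levels equal those of another gene numbered 249, none of them apart. limma 3.58.1 (eBayes with a mean trend, R 4.3.3) compared clone T with the others under Benjamini-Hochberg adjustment and was tested on simulated data. Python 3.11.15, pandas 2.3.3, NumPy 2.4.6, SciPy 1.17.1 and matplotlib 3.10.9 did the rest.

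The members and lists were chosen with earlier results of these data known. By rule the text names among regions apart by 0.2, up to 12 promoters per direction with the widest gaps, list members (2 per large family), and per direction the 5 HMRs above 0 in all clones and the 2 others with the widest gaps. All further genes, those with a gap of 0.1 to 0.2 included, were named after their values were seen. Alternatives were other scales, no trend, centred or quantile-normalised clones, other gaps, filters on range, level, zeros and length, and each other clone left out.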

Additional observations from a re-analysis of the deposited data

Results flagged for a closer look

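In 4 of 47 sets of 5 clones 1 of the other clones lay far from its fellows by Dixon's criterion, which chance alone meets in about 1 in 20 sets. At the 9930111J21Rik1 promoter, 0 in clone T, clone P was at 1 and the rest at 0.333 to 0.5. At the Defa-ps1 promoter, 0.519 in clone T, clone K was at 0.286 and the rest at 0.241 to 0.252. At the HMR on chromosome 1 from 79903096 to 79907964, 0.692 in clone T, clone L was at 0.143 and the rest at 0.4 to 0.429. In mean promoter level, 0.377 in clone T, clone L was at 0.369 and the rest at 0.402 to 0.412.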

How the results depend on the processing

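The mean promoter and HMR differences kept their sign throughout. None of the 45 named regions changed side, but this was fixed in advance. Leaving out any of the other clones cannot narrow the gap that chose them. Centring shifted the clones against each other by less than that gap. Promoters apart numbered 249 at a gap of 0.1, 5 at 0.3 and 36 to 59 with 1 other clone left out (59 without L). HMRs apart numbered 2803, 96, 193 when above 0 in all clones, and 456 to 1128 with 1 clone left out (1128 without L, 557 without E). limma called no promoter without a trend (1234 at an unadjusted p under 0.05), 34 with a range of at least 0.1 (29 lower) and 2 to 4 with 1 clone left out (2 without I, K or P). It called 19 HMRs after centring, 3 with a range of at least 0.1, 0 when above 0 in all clones (1624 unadjusted), 0 with a mean level of at least 0.1 (1941 unadjusted) and 621 to 992 with 1 clone left out (992 without E). The causes were not tested. No paired analysis was possible because the deposited columns carry 1 value per clone and no round. Depth is unknown, so levels such as 0, 0.333 or 1 cannot be weighted.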

Other observations

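On the X chromosome, which the HMR comparison left out, clone T was below all others by 0.2 at 34 and above at 18 of 4301 HMRs, while clone E was below at 1 and above at 666. In stretches of 10 Mb with at least 100 HMRs, the mean level of clone T was below that of the others in all but 2 of 248. The widest difference, of -0.132, was on chromosome 2 between 50 and 60 Mb, at 0.153 in clone T and 0.285 in the others. The reverse was widest on chromosome 10 between 110 and 120 Mb, at 0.263 in clone T and 0.231 in the others, in the numbering of the deposited table.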
